A study of Mus musculus with 5 samples.

Results

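Neural stem cell marker genes are described here in mouse medulloblastoma. The 6 genes, Nes, Vim, Prom1, Msi1, Msi2 and Fabp7, were chosen by symbol from the 17739 genes of the deposited table, and all 6 were found in it. The mice, of genotype Math1-Cre;Gli2A, gave RNA from tumour cells of the cerebellum; they carried the R26;Gli2A allele and were fed a doxycycline (DOX) diet from conception. The labels record GLI2, a transcription factor of the Sonic hedgehog (SHH) pathway, as active in every sample. All 5 libraries (tumours 1, 5, 8, 14 and 15) belong to 1 group, so there is no control, other genotype or normal tissue to compare them with. The Math1 promoter drives Cre in granule neuron progenitors of the cerebellum, while the cells profiled were a papain digest of tumour tissue for which the labels name no sort, so other cells of the tissue may be included. The labels give neither the age nor the sex of the animals, and do not say that each tumour number is a separate animal.

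Neural stem cells and radial glia of the developing brain are usually recognised by a small set of proteins. Nestin (Nes) and vimentin (Vim) are intermediate filament proteins of the cytoskeleton of dividing precursors. Prominin-1 (Prom1) is a membrane glycoprotein of cell protrusions and a common surface marker for sorting stem-like tumour cells. Musashi-1 and Musashi-2 (Msi1, Msi2) bind messenger RNAs and regulate their translation, with Numb, an inhibitor of Notch, as a well-known target of Musashi-1. Brain lipid-binding protein (Fabp7) carries fatty acids in radial glia and Bergmann glia, and its gene is a known target of Notch signalling. None of these genes is restricted to stem cells: Vim is also made by endothelial cells, fibroblasts and microglia, Nes by endothelial cells and pericytes, and Fabp7 by astrocyte-lineage cells.

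Nes and Fabp7, the markers of widest range, had like profiles over the tumours, as described below, and the sequences in front of these genes are shown for that reason. RefSeq promoter windows for GRCm38.p6 were present for 5 of the 6 genes, and Msi1 had no entry. Each window printed here ends before the first base annotated as an exon in GENCODE M21, which left 235 bases for Nes at chr3:87970843-87971077 on the plus strand and 208 bases for Fabp7 at chr10:57784673-57784880 on the plus strand. Both read 5′ to 3′, and capitals mark a match to a motif.
Nes: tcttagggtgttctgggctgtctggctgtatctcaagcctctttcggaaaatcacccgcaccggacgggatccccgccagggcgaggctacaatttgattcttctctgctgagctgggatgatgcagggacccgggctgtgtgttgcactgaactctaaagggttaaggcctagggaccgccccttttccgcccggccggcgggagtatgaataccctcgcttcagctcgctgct
Fabp7: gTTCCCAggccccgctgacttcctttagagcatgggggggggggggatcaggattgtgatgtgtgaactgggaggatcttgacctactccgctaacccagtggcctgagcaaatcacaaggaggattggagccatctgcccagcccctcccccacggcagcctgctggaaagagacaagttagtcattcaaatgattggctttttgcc
The 250 bases before each RefSeq start were searched on both strands for 5 short motifs, and no matches overlapped. The motifs were a GLI core (CCACCCA), an RBPJ core (TGGGAA), a SOX core (ACAAAG), a POU motif (TGCAAA) and an NFI motif (TTGGCA). Fabp7 held 1 match, to the RBPJ core on the opposite strand, from 249 to 244 bases before the start. The Nes, Vim and Msi2 windows held none of the 5. Prom1 held 1 RBPJ core match, 116 to 111 bases before the first of its 2 listed starts. That Prom1 window and the Vim window began inside an exon annotated in GENCODE M21. The Msi2 windows had 14, 4 and 0 bases before such an exon. The letters searched for these genes therefore overlap annotated transcripts. Of all 32851 promoter windows, 21.6% held the RBPJ core, 16.5% the SOX core, 13.5% the POU motif, 12.3% the NFI motif and 8.11% the GLI core. A match to so short a motif is a description of the letters only.

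All 6 genes were expressed in each tumour. Values are on the authors' log2 scale, read here as regularised-log values, on which a difference of 1 is a doubling. The 6 means had a median of 10.80, against 9.40 for the 13691 genes that averaged 5 or more. The deposited table holds no read counts, so sequencing depth is unknown, and the library medians lay between 8.51 and 8.58. The tissue label was checked against granule lineage genes, which were high throughout: Zic1, a transcription factor of granule progenitors, averaged 15.08 ± 0.05 and Pax6 averaged 13.30 ± 0.08 (SD, n = 5 each). The 11 granule progenitor genes listed had a median of 13.30 ± 0.08.

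**Figure D1:**
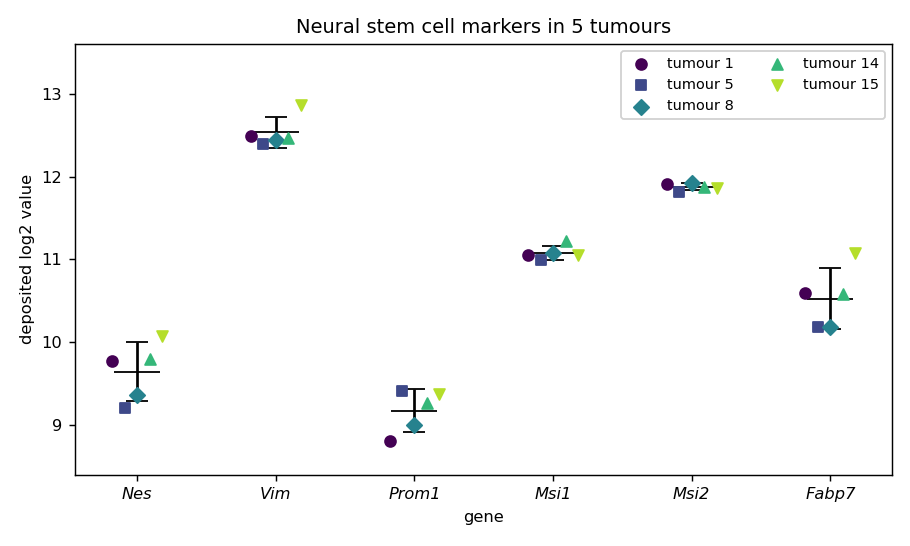
Deposited log2 values (vertical axis) of the 6 neural stem cell marker genes (horizontal axis) in 5 tumours, with symbols for single tumours and black bars for the mean and SD (n = 5). Vim lay highest, between 12.39 and 12.86, Prom1 and Nes lay lowest, and the 5 symbols lie close together for Msi1 and for Msi2.

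The intermediate filament genes came first by role. Nes was 9.78 in tumour 1, 9.20 in tumour 5, 9.37 in tumour 8, 9.80 in tumour 14 and 10.08 in tumour 15, with a mean of 9.64 ± 0.35 (SD, n = 5). Tumours 5 and 8 were the low ones, tumour 15 was the high one, and tumours 1 and 14 differed by only 0.02. The highest and lowest tumours were 1.83-fold apart. The Nes gene lies on the plus strand of GRCm38 chromosome 3, 87971078 to 87980451, and is protein coding.

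Vim was 12.49 in tumour 1, 12.39 in tumour 5, 12.45 in tumour 8, 12.47 in tumour 14 and 12.86 in tumour 15, averaging 12.53 ± 0.19 (SD, n = 5). Tumour 15 stood 0.37 above the next tumour, while the other 4 tumours lay within 0.11 of each other. The range was 1.39-fold over all tumours and 1.08-fold without tumour 15. Vim, on chromosome 2 (13573927 to 13582826, plus strand), stood above 96.0% of those 13691 genes.

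Prom1 followed another order. It was 8.81 in tumour 1, 9.42 in tumour 5, 9.01 in tumour 8, 9.26 in tumour 14 and 9.37 in tumour 15, averaging 9.17 ± 0.26 (SD, n = 5). Tumour 5, where the other 5 markers were lowest, had the highest Prom1 value, 0.04 above tumour 15, and tumour 1 had the lowest. The range was 1.52-fold, and it was 1.33-fold without tumour 1. Prom1 lies on the minus strand of chromosome 5 (43993620 to 44102032).

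The Musashi genes barely differed between tumours. Msi1 was 11.05 in tumour 1, 10.99 in tumour 5, 11.07 in tumour 8, 11.22 in tumour 14 and 11.05 in tumour 15, with a mean of 11.08 ± 0.09 (SD, n = 5). Msi2 was 11.91 in tumour 1, 11.82 in tumour 5, 11.93 in tumour 8, 11.88 in tumour 14 and 11.86 in tumour 15, averaging 11.88 ± 0.04 (SD, n = 5). Their ranges were 1.17-fold for Msi1 and 1.08-fold for Msi2, so that the single high value of Msi1, in tumour 14, was 1.13-fold the mean of the other 4 tumours. Msi1 lies on chromosome 5 (115429599 to 115455698, plus strand) and Msi2 on chromosome 11 (88339382 to 88718513, minus strand).

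Fabp7 was 10.59 in tumour 1, 10.18 in tumour 5, 10.18 in tumour 8, 10.59 in tumour 14 and 11.07 in tumour 15, averaging 10.52 ± 0.37 (SD, n = 5). The values formed 3 levels: tumour 15 on top, tumours 14 and 1 together 0.48 below it, and tumours 8 and 5 together a further 0.40 below. The range was 1.85-fold, and 1.33-fold without tumour 15. Tumour 15 was 1.61-fold the mean of the other 4 tumours for Fabp7, 1.45-fold for Nes and 1.33-fold for Vim. Fabp7 lies on chromosome 10 (57784881 to 57788450, plus strand).

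Against all genes, the markers differed in how much they varied between tumours. Of the 6 genes, 3 (Nes, Fabp7 and Prom1) had a range over 1.5-fold, a threshold that 14.7% of the 13691 genes passed. None of the 6 reached 2-fold, which 3.79% of the genes did. The SD of Fabp7 exceeded that of 97.5% of the 2512 genes whose mean lay within 0.5 of its own, and the SD of Nes exceeded 96.0% of 2681 such genes. The corresponding shares were 89.5% for Prom1, 89.0% for Vim and 52.1% for Msi1. For Msi2 the share was 13.4%, so Msi2 was steadier than most genes of its level. Without tumour 1, 5 or 15 the count over 1.5-fold was 2 of 6: Prom1 dropped below the threshold without tumour 1 (1.33-fold) or tumour 5 (1.48-fold), and Fabp7 without tumour 15.

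**Figure D2:**
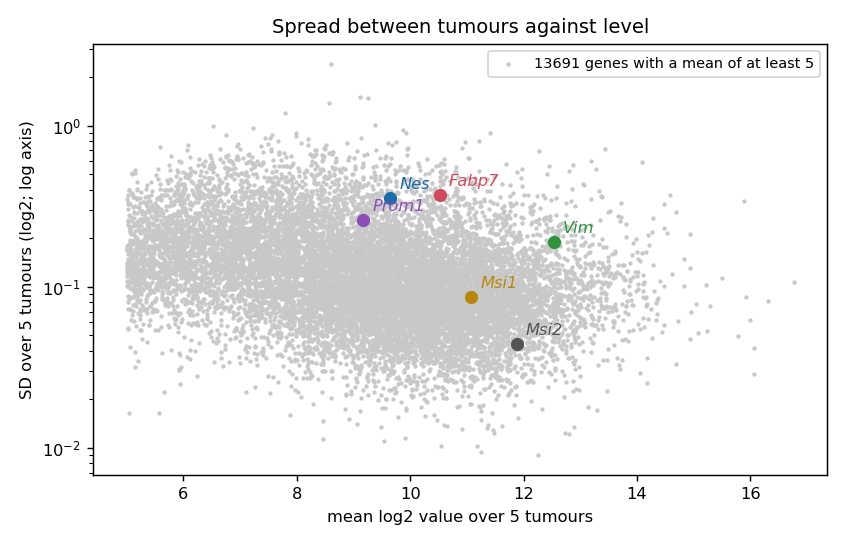
SD over 5 tumours (vertical, log axis, log2 units) against mean log2 value (horizontal) for 13691 genes averaging 5 or more (grey) and the 6 markers (coloured). Fabp7 and Nes sit in the upper part of the cloud at their level, with SDs of 0.37 and 0.35, and Msi2 sits low, with an SD of 0.04.

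The markers shared their extreme tumours in part. Nes, Vim and Fabp7, 3 of the 6, were highest in tumour 15, as were 21.4% of the 13691 genes. Msi1 was highest in tumour 14, Msi2 in tumour 8 and Prom1 in tumour 5. In tumour 5 the level was lowest for 5 of the 6 genes, all except Prom1, against 24.6% of the genes. For Fabp7 this rests on a gap of 0.004 to tumour 8, and for Msi2 on a gap of 0.04. Relative to the mean of the other 4 tumours, tumour 5 deviated by -0.55 for Nes, -0.43 for Fabp7, -0.18 for Vim, -0.11 for Msi1 and -0.08 for Msi2, and by 0.30 for Prom1. Both tumours were picked out with their values known, so these counts are descriptions, with no test.

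**Figure D3:**
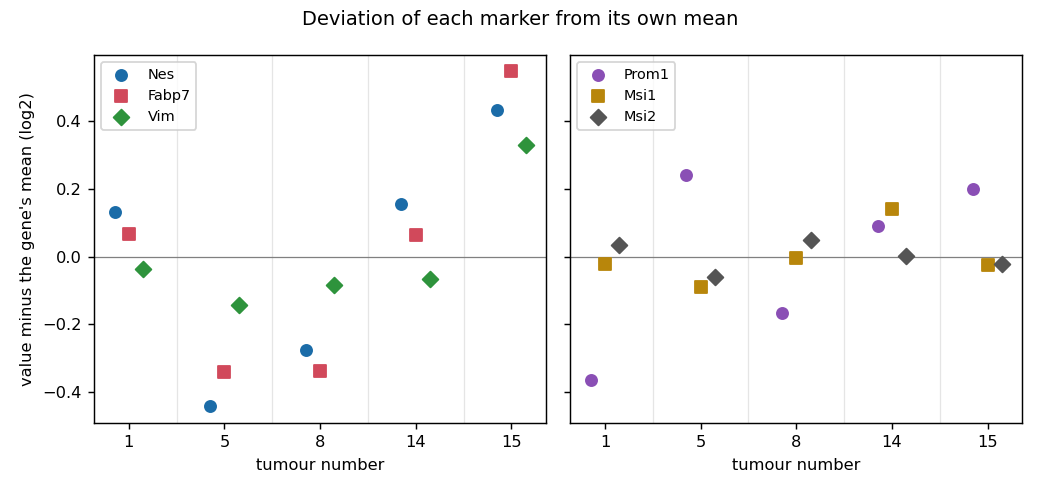
Deviation of each gene from its own mean over the 5 tumours (vertical, log2 units) by tumour number (horizontal, with no order between tumours). On the left Nes, Fabp7 and Vim all lie above 0.3 in tumour 15 and below 0 in tumours 5 and 8; on the right Prom1 is high in tumours 5 and 15 and low in tumour 1, while Msi1 and Msi2 stay within 0.15 of 0.

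Nes and Fabp7 kept a nearly constant ratio. The log2 difference of Fabp7 minus Nes, without length correction, averaged 0.88 with an SD of 0.10 (n = 5) and ran from 0.79 to 1.00, although each gene alone had an SD above 0.35. The difference of Vim minus Fabp7 had an SD of 0.21, and that of Nes minus Prom1 an SD of 0.44, larger than the SD of either gene. Likeness of profile was measured as the root mean square difference between the 5 deviations of 2 genes from their own means. Of the 13690 other genes averaging 5 or more, Fabp7 was the 6th nearest to Nes, at 0.089 log2 units, and Nes was the 7th nearest to Fabp7. Msi1 and Msi2 lay closer still, at 0.073, but both hardly varied. This measure is over 5 libraries that the genes share, and small values come easily for genes that hardly vary.

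The genes nearest to each marker were named by the same measure. For Nes they were Mgat4c (0.044), Scn3a, a sodium channel subunit of immature neurons (0.058), and the zinc-finger homeobox gene Zfhx4 (0.064). For Fabp7 they were Tert, which encodes the catalytic subunit of telomerase (0.047), Tnfaip8l3 (0.069) and Klhdc8a (0.076). For Vim they were Hmgn3, a nucleosome-binding protein gene (0.022), Stx2 (0.029) and Dsel (0.032). The genes nearest to Prom1 were neuronal: Syt1, the calcium sensor of synaptic vesicle release (0.042), Glra2, a glycine receptor subunit (0.042), and Kcnd2, a potassium channel subunit (0.058). Syt1 was 9.71 in tumour 1, 10.24 in tumour 5, 9.84 in tumour 8, 10.05 in tumour 14 and 10.16 in tumour 15, the same order of tumours as Prom1. For Msi1 the nearest were Socs7 (0.007), Hinfp (0.008) and Spen (0.009). For Msi2 they were Rps6kc1 (0.005), Specc1l (0.006) and Togaram1 (0.008).

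Levels of different genes were then set side by side per exon length, as the log2 value minus the log2 of the summed exon length in kilobases. On that scale Vim (10.29 ± 0.19) and Fabp7 (10.20 ± 0.37) stood highest, followed by Msi1 (8.54 ± 0.09) and Msi2 (8.50 ± 0.04), then Nes (6.96 ± 0.35) and Prom1 (6.33 ± 0.26; SD, n = 5 each). Neighbours in this order that did not differ beyond their spread were Vim and Fabp7, with a difference of 0.08 ± 0.21, and Msi1 and Msi2, with 0.04 ± 0.08. The sign of each varied between tumours. Nes exceeded Prom1 by 0.63 ± 0.44, in 4 of 5 tumours, and tumour 5 was the exception (-0.05).

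Across the wider gaps the order was the same in each tumour. Fabp7 exceeded Msi1 by 1.66 ± 0.36, and Msi2 exceeded Nes by 1.54 ± 0.35 (SD, n = 5 each). Vim exceeded Nes, its partner in mixed filaments, by 3.32 ± 0.23, a 10.0-fold difference per length, and Fabp7 exceeded Nes by 3.24 ± 0.10. Of the 15 pairs of markers, 12 kept 1 sign in all 5 tumours, each giving an exact two-sided sign-flip permutation p of 0.0625 (0.0781 after Benjamini-Hochberg adjustment over 15 pairs). With 5 libraries 0.0625 is the smallest p the test can give, so no pair could pass 0.05. The 3 other pairs gave exact permutation p-values of 0.5 for Vim and Fabp7, 0.375 for Msi1 and Msi2 and 0.125 for Nes and Prom1. With the longest transcript in place of summed exons, Nes minus Prom1 was -0.11, Vim exceeded Fabp7 by 0.27 and Msi1 exceeded Msi2 by 0.24, the last 2 in 5 of 5 tumours. With no length subtracted, Vim minus Fabp7 was 2.01 ± 0.21, above 0 in 5 of 5 tumours, and Msi1 minus Msi2 was -0.80, below 0 in 5 of 5. On that scale Fabp7 minus Msi1 was -0.55, Fabp7 minus Msi2 was -1.35, Fabp7 minus Nes was 0.88 and Vim minus Msi2 was 0.65, so the order rests on the length correction.

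**Figure D4:**
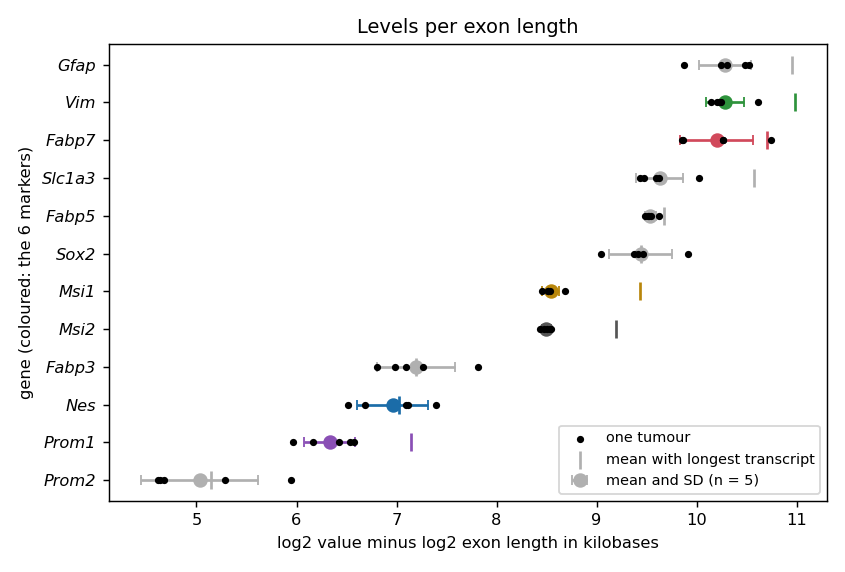
Level per exon length (horizontal, log2 value minus log2 exon length in kilobases) of the 6 markers (coloured) and 6 related genes (grey), with the mean and SD (large points, n = 5), single tumours (black points) and the mean when the longest transcript replaces the summed exons (vertical ticks). Vim and Fabp7 overlap near 10, beside Gfap, Msi1 and Msi2 overlap near 8.5, and Nes and Prom1 lie lowest of the markers.

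Related genes gave a scale for these levels. Gfap, the intermediate filament gene of astrocytes, reached 10.29 ± 0.26 per length, and Vim minus Gfap was -0.002 ± 0.27 (exact sign-flip permutation p = 1), while Nes minus Gfap was -3.33 ± 0.47. Nes minus Sox2, a stem cell transcription factor gene, was -2.48 ± 0.15 in a direction shared by 5 of 5 tumours. Fabp7 exceeded Fabp5, the epidermal fatty acid-binding protein gene, by 0.66 ± 0.35 and Fabp3, the heart type, by 3.01 ± 0.67, in 5 of 5 tumours each. With no length subtracted, Fabp7 minus Fabp5 was -0.85, below 0 in 5 of 5 tumours, and Nes minus Sox2 was -0.84. Prom1 exceeded its paralogue Prom2 by 1.30 ± 0.57, also in 5 of 5 tumours, and the prominin-linked list (Prom2, Arl13b and Tspan4) had a median of 8.88 ± 0.16. Prom2 itself ran from 6.99 in tumour 5 to 8.32 in tumour 15 on the deposited scale. Fabp7 minus Slc1a3, the glial glutamate transporter gene, was 0.57 ± 0.49, above 0 in 4 of 5 tumours and -0.17 in tumour 5 (exact permutation p = 0.125). That difference was 0.13 with the longest transcript, above 0 in 3 of 5 tumours, and -2.20 with no length subtracted. With Vim and Nes, the pairs of constant sign (Nes with Gfap or Sox2, Fabp7 with Fabp5 or Fabp3, Prom1 with Prom2) numbered 6 of 9, each with an exact permutation p of 0.0625, or 0.0938 after Benjamini-Hochberg adjustment over the 9 pairs.

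Messenger RNAs linked to Musashi proteins and other filament genes had mixed orders over the tumours. Numb was 9.23 in tumour 1, 9.53 in tumour 5, 9.41 in tumour 8, 9.43 in tumour 14 and 9.70 in tumour 15. Numbl, its paralogue, averaged 11.69 ± 0.05 (SD, n = 5) and was lowest in tumour 15. Of the 8 Musashi-linked genes listed, 2 were highest in tumour 15 and 1 was lowest in tumour 5, against 21.4% and 24.6% of the 13691 genes. Of the 11 other filament genes, 1 was highest in tumour 15 and 6 in tumour 5, as were 24.1% of the 13691 genes. The 6 included the neurofilament genes Nefl (9.42 in tumour 5, against 8.75 to 8.90 in the others) and Nefm. Of the 11, 9 averaged 5 or more, as the 13691 genes did. The rest, among them Prph with a mean of 2.74, were highest in tumour 5. The filament genes of highest mean were Ina, the neuronal internexin gene (13.27 ± 0.11), and Lmnb1, of the nuclear lamina (12.87 ± 0.11).

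Other neural stem cell genes were examined as a list of 26, of which 25 were in the table. The list's median was 10.71 in tumour 15, 10.27 in tumour 1, 9.97 in tumour 5, 10.41 in tumour 8 and 10.29 in tumour 14. Of the 25 genes, 12 were highest in tumour 15 and 10 were lowest in tumour 5. Both held for 7: Sox1, Sox2, Hes1, Hes5, Notch1, Ptprz1 and Tnc. Fut4, among the 10, averaged 3.83, below the mean of 5 required of the 13691 genes. A range over 1.5-fold was found for 10 of the 25 and over 2-fold for 2, Tnc and Hmga2, against 14.7% and 3.79% of the 13691 genes. Of the 13691 genes, 7.84% were both highest in tumour 15 and lowest in tumour 5, beside the 21.4% and 24.6% given above for each tumour alone. Nes, Vim and Fabp7 were also both.

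Sox2 was 10.45 in tumour 1, 10.08 in tumour 5, 10.41 in tumour 8, 10.51 in tumour 14 and 10.96 in tumour 15, and it was the 50th nearest gene to Nes and the 43rd nearest to Fabp7. The Notch target Hes5 was 7.21 in tumour 1, 7.12 in tumour 5, 7.21 in tumour 8, 7.46 in tumour 14 and 7.86 in tumour 15. Tenascin C (Tnc), an extracellular matrix gene of radial glia, had the widest range of the list, from 9.79 in tumour 5 to 11.40 in tumour 15. Sox1 spanned 9.97 in tumour 5 to 10.89 in tumour 15. These 4 genes were extreme in the same tumours as Nes and Fabp7.

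Other genes of the list had other orders. Sox9, a glial and stem cell transcription factor gene, was lowest in tumour 15 (11.37, against 11.73 to 12.20 in the others). The chromatin gene Hmga2 was 6.81 in tumour 1, 5.31 in tumour 5, 6.52 in tumour 8, 5.32 in tumour 14 and 6.38 in tumour 15. Slc1a3 was highest in tumour 5 (13.12), and Bmi1, a Polycomb gene of stem cell self-renewal, varied little, at 11.85 ± 0.02 (SD, n = 5). Fut4, which makes the CD15 carbohydrate epitope, had the lowest mean of the list at 3.83 ± 0.10.

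**Figure D5:**
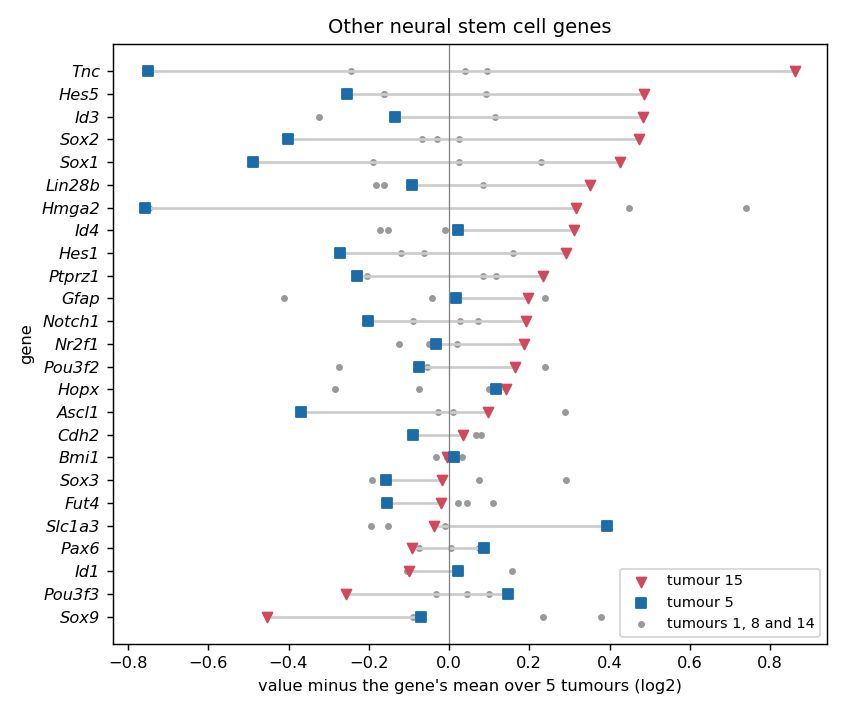
Deviation of 25 other neural stem cell genes (vertical) from their own means (horizontal, log2 units) in tumour 15 (triangles), tumour 5 (squares) and tumours 1, 8 and 14 (grey points). Tnc, Hes5, Sox2 and Sox1 lie far right in tumour 15 and left in tumour 5, while Sox9 lies left in tumour 15 and Slc1a3 right in tumour 5.

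Markers of other cells that can express these genes also moved between the tumours. In bulk RNA, more cells of a type and more RNA per cell cannot be told apart. Sums given below are of linear levels, so the most abundant genes of each list weigh most. These were Col3a1 among pericyte and fibroblast markers, Sparcl1 among astrocyte markers, Mbp among mature oligodendrocyte markers and Ttr among choroid plexus markers. The summed linear level of 11 pericyte and fibroblast markers was 133% of the 5-tumour mean in tumour 15, 101% in tumour 1, 74.3% in tumour 5, 109% in tumour 8 and 82.3% in tumour 14. Of the 11, 5 were highest in tumour 15, against 21.4% of all genes. These were Pdgfrb and the matrix genes Col1a2, Col3a1, Dcn and Lum, and Col3a1 had the highest value, 14.02. The pericyte and smooth muscle genes Rgs5, Acta2, Kcnj8, Abcc9 and Tagln, 5 of the 11, were instead highest in tumour 1, as were 20.2% of the 13691 genes. The 11 endothelial markers summed to 87.1% in tumour 15 and 132% in tumour 5, with 9 of 11 highest in tumour 5, against 24.1% of all genes. The 13 astrocyte and Bergmann glia markers summed to 100% in tumour 15 and 117% in tumour 5, with 8 of 13 highest in tumour 5. In tumour 15, 1 of the 11 endothelial and 2 of the 13 astrocyte and Bergmann glia markers were highest, against 21.4% of all genes. Neither summed level had the tumour order of Nes and Fabp7.

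Oligodendrocyte precursor markers summed to 101% in tumour 15, 126% in tumour 1 and 86.1% in tumour 5. In tumour 5, 4 of 8 were lowest, against 24.6% of all genes. Microglia and macrophage markers summed to 79.2% in tumour 15 and 140% in tumour 5, with 11 of 13 lowest in tumour 15, against 22.9% of all genes, and 12 of 13 highest in tumour 5. Mature oligodendrocyte markers summed to 71.7% in tumour 15 and 157% in tumour 5, and choroid plexus markers to 73.2% and 200% in these tumours. The choroid plexus sum was mostly Ttr, at 14.71 in tumour 5, against 10.80 for Otx2, the next highest. All 10 oligodendrocyte and 6 of 7 choroid plexus markers were highest in tumour 5, against 24.1% of all genes. Tumour 5 thus held more of several other cell markers. Mature granule neuron genes, with which the genes nearest to Prom1 share Syt1, were highest in tumour 5 for 8 of 11, against the same 24.1%. SHH target genes were lowest in tumour 5 for 9 of 10 and cell cycle genes for 10 of 14, against 24.6% of all genes. The ependymal list, whose cells express Prom1 and Vim, had a median of 4.90 ± 0.08 and its highest gene, Foxj1, averaged 7.99 ± 0.21. The lowest gene of these lists was the ependymal Tmem212, at 2.80 ± 0.09 (SD, n = 5), on a scale whose lowest value in the table was 0.33. The part of these cells in the marker levels was not tested.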

How the data were processed

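RNA-seq libraries from 5 tumours of 1 group were analysed. The authors deposited 1 table of log2 values per gene symbol, taken, from the table's name, to be DESeq2's regularised log. The submitters' processing notes name STAR 2.4.1, featureCounts from Subread 1.4.6, DESeq2 and 2 names of the mouse build, mm10 and GRCm38. The annotation, strand setting and gene filter were not given in the sources used here. Such values are scaled for library size, not transcript length, and understate differences of weak genes. Of 7 columns, 2 match no sample and were not used.

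The members and gene lists (17 lists, 9 gene pairs) were chosen with earlier results of these data known. Named genes were the 6 members, the paired genes, per list the 2 of highest and 1 of lowest mean (5 of largest range for stem cell genes), and the 3 nearest profiles per member; Hes5, Nefl, Nefm, Atoh1, Crabp1, Crabp2, Bmi1, Numb, Numbl, the pericyte and matrix genes and the 7 genes extreme in both tumours were named after their values were seen. Not all genes that the rule names are printed. Exon lengths came from GENCODE M21 (GRCm38), where 97.5% of symbols matched exactly 1 gene. Differences within tumours were tested with the exact two-sided sign-flip permutation test, adjusted by Benjamini-Hochberg. The p-values refer to the mean difference between genes within these libraries, and the spread between libraries may be technical. Alternatives were subtraction of library medians, each library left out, all genes as background, other exon lengths and none. The steps, run in Python 3.11.15 with numpy 2.4.6 and pandas 2.3.3, were tested on simulated data.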

Additional observations from a re-analysis of the deposited data

Results flagged for a closer look

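In 5 of 73 values examined (6 markers, 22 differences between genes, 17 list medians and 28 other genes), 1 tumour stood far from the other 4 by Dixon's ratio of gap to range, whose 95% critical value for 5 samples is 0.71. Chance alone passes about 1 in 20 such groups. Vim was 12.86 in tumour 15 (ratio 0.78), against 12.39 to 12.49 in the others. Vim minus Msi2 per exon length was 2.14 in tumour 15 (ratio 0.86), against 1.65 to 1.72 in the others. Msi1 minus Msi2 per exon length was 0.18 in tumour 14 (ratio 0.72), against at most 0.04 in the others. The median of the other filament genes was 9.42 in tumour 5 (ratio 0.71), against 8.75 to 8.94 in the others; in tumour 5 it is the value of Nefl alone, and the summed level of the list was 100.2% of its mean. The median of the choroid plexus markers was 8.64 in tumour 5 (ratio 0.84), against 7.93 to 8.04 in the others.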

How the results depend on the processing

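Of 366 recomputed values, 12 changed sign and 3 others moved by more than 1.5 times. The 366 include mean levels and list medians on the log2 scale, which could hardly move by that measure. Subtracting library medians leaves their means unchanged by construction. The change of sign between Msi1 and Msi2 was counted in each direction. Differences between genes were compared by sign only, and their size depended on the exon length: of 22 pairs, 14 moved by over 1.5-fold without length subtraction (by up to 3.06 on the log2 scale) and 6 with the longest transcript (by up to 0.82). Counts of markers highest in tumour 15 (3 to 4 of 6), lowest in tumour 5 (5 of 6) and over 1.5-fold (2 to 3 of 6) stayed within 1.5 times the reported count under each alternative that gave a value. Without tumour 5, 8.89% of genes passed 1.5-fold and 1.82% passed 2-fold; without tumour 15, 2.33% passed 2-fold.

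Without length subtraction, Fabp7 minus Msi1 was -0.55, Fabp7 minus Msi2 -1.35, Msi1 minus Msi2 -0.80 (Msi2 minus Msi1 0.80), Fabp7 minus Fabp5 -0.85, Fabp7 minus Slc1a3 -2.20 and Vim minus Gfap 0.17, because these genes differ in exon length. With the longest transcript, Nes minus Prom1 was -0.11 and Vim minus Gfap 0.023. Leaving out each tumour put Vim minus Gfap between -0.096 and 0.079, with no constant sign. The depth of the libraries is unknown, so no counting error can be given. No comparison between groups, paired or not, was possible because all libraries belong to 1 group. Only differences between genes were tested, paired within tumours.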

Other observations

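Crabp1 and Crabp2, which encode cellular retinoic acid-binding proteins related to Fabp7, were also highest in tumour 15. Crabp1 was 5.60 in tumour 15, against 4.66 to 5.26 in the others. Crabp2 was 7.43 in tumour 15, against 6.59 to 6.94 in the others. Fabp5 differed little between the tumours (11.37 ± 0.05, SD, n = 5), Fabp3 was highest in tumour 5 (7.54, against 6.52 to 6.99), and Fabp4, the adipocyte form, averaged 0.98 ± 0.05.

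The proneural gene Atoh1, which marks granule progenitors and whose promoter drives the Cre transgene, was 9.49 in tumour 15, against 8.00 in tumour 1, 8.17 in tumour 5, 8.27 in tumour 8 and 9.18 in tumour 14. Tumour 1, with low Atoh1, had Nes at 9.78, close to the 9.80 of tumour 14.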
